A study of Mus musculus with 36 samples.

Results

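Chemokines are small secreted proteins that direct the movement of leukocytes and of several other cell types. They are named CC, CXC, CX3C or XC after the spacing of their conserved cysteines, and they signal through G protein-coupled receptors that activate Gi proteins and downstream kinases. A separate set, the atypical receptors (Ackr genes), binds chemokines without G protein signalling and takes them up. In muscle and nerve, chemokines of the Ccl2 and Cxcl1 groups recruit monocytes and neutrophils after injury, Cx3cl1 binds the Cx3cr1 receptor of monocytes and macrophages, and Cxcl12 acts through Cxcr4 and is taken up by Ackr3.

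The genes described are the protein-coding mouse genes of the count table whose symbol is Ccl, Ccr, Cxcl or Cxcr with a number, or begins with Cx3c, Xcl, Xcr or Ackr. They number 67 of 52636 genes, 44 ligands and 23 receptors. Of the 67, 7 are copies of Ccl19, Ccl21a, Ccl21b, Ccl21c or Ccl27 on unplaced scaffolds. The libraries came from S100β-GFP;NG2-dsRed mice, which carry GFP under the promoter of S100b, a gene of Schwann cells, and dsRed under that of Cspg4, which encodes NG2. All groups therefore share both transgenes and differ in the fluorescence by which they were sorted. Diaphragm, pectoralis, forelimb and hindlimb muscles of mice of P15 to P21, by the study's methods, were digested with collagenase, and 3 populations were sorted, namely S100β-GFP+;NG2-dsRed+ cells (perisynaptic Schwann cells, PSCs), S100β-GFP+ cells (Schwann cells by their label) and NG2-dsRed+ cells, which include pericytes. The labels of the libraries give the same lower age but upper ages from P21 to P46. The muscles of 1 mouse made up each replicate, and no label pairs the populations by mouse. The table holds 9 libraries of PSCs, 8 of S100β-GFP+ cells and 10 of NG2-dsRed+ cells, named here by their sample numbers, with 5221655 to 9592875 counts on genes (median 6953507).

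The sorted populations were checked against marker genes, since leukocytes, fibroblasts and endothelium use many chemokines. The summed level of 19 leukocyte markers was 1366 to 12795 CPM (TMM-normalized counts per 1000000 counts) in the S100β-GFP+ libraries, 38.9 to 575 in the PSC libraries and 22.4 to 343 in the NG2-dsRed+ libraries. Ptprc, the pan-leukocyte CD45, had a mean of 294 ± 178 CPM (SD, n = 8) in S100β-GFP+ cells, against 1.07 ± 1.28 CPM (SD, n = 9) in PSCs and 2.32 ± 1.77 CPM (SD, n = 10) in NG2-dsRed+ cells. Of the 14 leukocyte markers tested, 12 were lower in PSCs than in the S100β-GFP+ population. S100β-GFP+ cells were higher than the NG2-dsRed+ population in 12 and lower in 2. Between PSCs and NG2-dsRed+ cells, 8 were lower in PSCs and 1, the lysozyme gene Lyz2 of macrophages and neutrophils, was higher, with 170 ± 169 CPM (SD, n = 9) against 27.1 ± 15.3 CPM (SD, n = 10) and 4549 ± 2555 CPM (SD, n = 8) in S100β-GFP+ cells. Lyz2 was above NG2-dsRed+ cells by 2.65 on the log2 scale (SE 0.49, adjusted p = 5.32e-05). In PSCs it was at 566 CPM in library 18 and at 25.5 to 280 CPM in the other 8. The sum of 10 fibroblast markers was 25423 to 55961 CPM in S100β-GFP+ cells, 1556 to 4669 in PSCs and 2918 to 25133 in NG2-dsRed+ cells, and all 10 were lower in PSCs than in either other population. The sum of 9 Schwann cell markers was 845 to 2760 CPM in S100β-GFP+ cells and 3012 to 3673 CPM in PSCs, so every PSC library lay above every S100β-GFP+ library, and 5 of the 9 were higher in PSCs by test. The S100β-GFP+ libraries are therefore called by their gate and not by a cell type. S100β-GFP+ libraries 14, 17 and 22 had lower leukocyte sums (1366 to 4119 CPM) than the other 5 (6279 to 12795 CPM) and higher endothelial sums (1020 to 3307 against 152 to 242 CPM). In NG2-dsRed+ cells, 10 endothelial markers summed to 1874 to 4390 CPM and 10 pericyte and smooth muscle markers to 7298 to 15858 CPM, against 200 to 826 and 790 to 1457 CPM in PSCs. The pericyte list holds Cspg4, whose promoter drives the dsRed used for sorting. Cspg4 made up most of the PSC sum, with 689 ± 132 CPM (SD, n = 9) in PSCs against 665 ± 138 CPM (SD, n = 10) in NG2-dsRed+ cells. No marker of any list was at 0 in a whole population, and the part of these markers' cells in the chemokine results was not tested. In bulk libraries, fewer cells of a type and less RNA per cell cannot be told apart.

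A filter on low counts kept 32 of the 67 genes, 23 ligands and 9 receptors. Many of the 32 passed through the population where they are high, so the counts that follow describe them and do not support a difference of the family as a whole. Between PSCs and S100β-GFP+ cells, 30 of the 32 genes differed with an adjusted p under 0.05, as did 47% of all genes tested. PSCs were lower in 29 of them, where 24.1% of all genes were lower, and higher in Ccl27a alone, where 22.9% of all genes were higher. Every PSC library lay below every S100β-GFP+ library for 26 of the 32 (10.3% of all genes) and above for 0 (5.24%). Their median log2 fold change was -5.49, beside 0.04 over all genes tested. A log2 fold change of -4 or below was found for 21 of the 32, and for 4.06% of all genes. Between PSCs and NG2-dsRed+ cells, 17 of the 32 passed, as did 44% of all genes. PSCs were lower in 15, where 23.1% of all genes were lower, and higher in Ccl25 and Ccl27a, where 20.9% were higher, with a median log2 fold change of -1.28 beside 0.02 over all genes. Every PSC library lay below every NG2-dsRed+ library for 8 genes (8.83% of all genes) and above for 0 (5.08%). Both PSC comparisons use the same PSC libraries. Of the 32 genes, 26 differed between the S100β-GFP+ and NG2-dsRed+ populations (33.3% of all genes). The former were higher in 24 (18.1%), with every library higher in 21 (7.21%), and lower in Cxcl12 and Cx3cl1 (15.2%), with every library lower for Cxcl12 alone (4.38%). PSCs were below both other populations in 15 genes (14.4% of all genes), S100β-GFP+ cells above both in 24 (11.8%). In 10 genes, namely Ccl2, Ccl6, Ccl7, Ccl8, Ccl9, Cxcl1, Cxcl16, Ccr1, Ccr2 and Ackr3, all 3 steps from PSCs through NG2-dsRed+ to S100β-GFP+ cells passed, as for 4.46% of all genes.

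**Figure D1:**
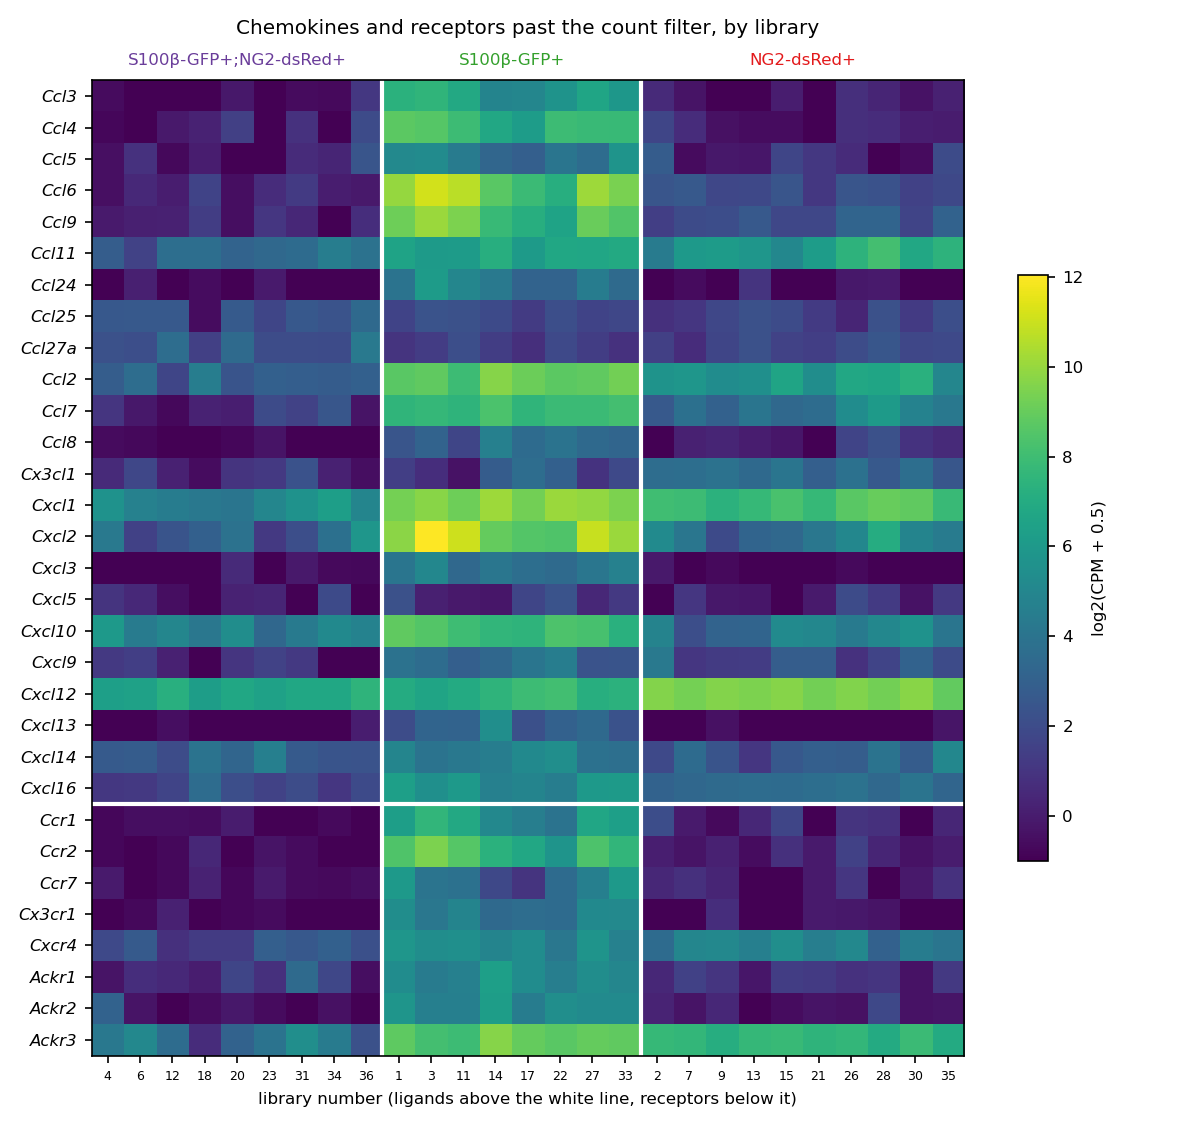
Level of 31 chemokine and receptor genes past the count filter (rows, ligands above the horizontal white line and receptors below it) in each of the 27 libraries (columns, sample numbers, grouped by sorted population), as log2(CPM + 0.5). The S100β-GFP+ columns are the brightest for most rows, Cxcl12 is brightest in NG2-dsRed+ cells, and most receptor rows are dark in PSCs.

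The summed level of the 67 genes was 199 to 371 CPM in PSCs, with a mean of 274 ± 56.8 CPM (SD, n = 9). It was 1197 to 1981 CPM in NG2-dsRed+ cells, with a mean of 1534 ± 301 CPM (SD, n = 10). It was 3626 to 11921 CPM in S100β-GFP+ cells, with a mean of 6541 ± 2595 CPM (SD, n = 8), and the 3 ranges did not overlap. Per kilobase of exon, the leading members of PSCs were Cxcl1 at 19 ± 10.8 CPM per kb, Cxcl12 at 13.4 ± 4.08, Cxcl10 at 13.3 ± 7.46 and Ccl11 at 10.4 ± 5.07 (SD, n = 9), which lay within each other's spread. In NG2-dsRed+ cells Cxcl1 led at 161 ± 63.5 CPM per kb, followed by Ccl11 at 97.7 ± 73.6 and Cxcl12 at 85.9 ± 13.9 (SD, n = 10). In S100β-GFP+ cells Cxcl2 led at 691 ± 633 CPM per kb, followed by Ccl6 at 521 ± 407, Ccl2 at 441 ± 150 and Cxcl1 at 437 ± 115 (SD, n = 8).

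**Figure D2:**
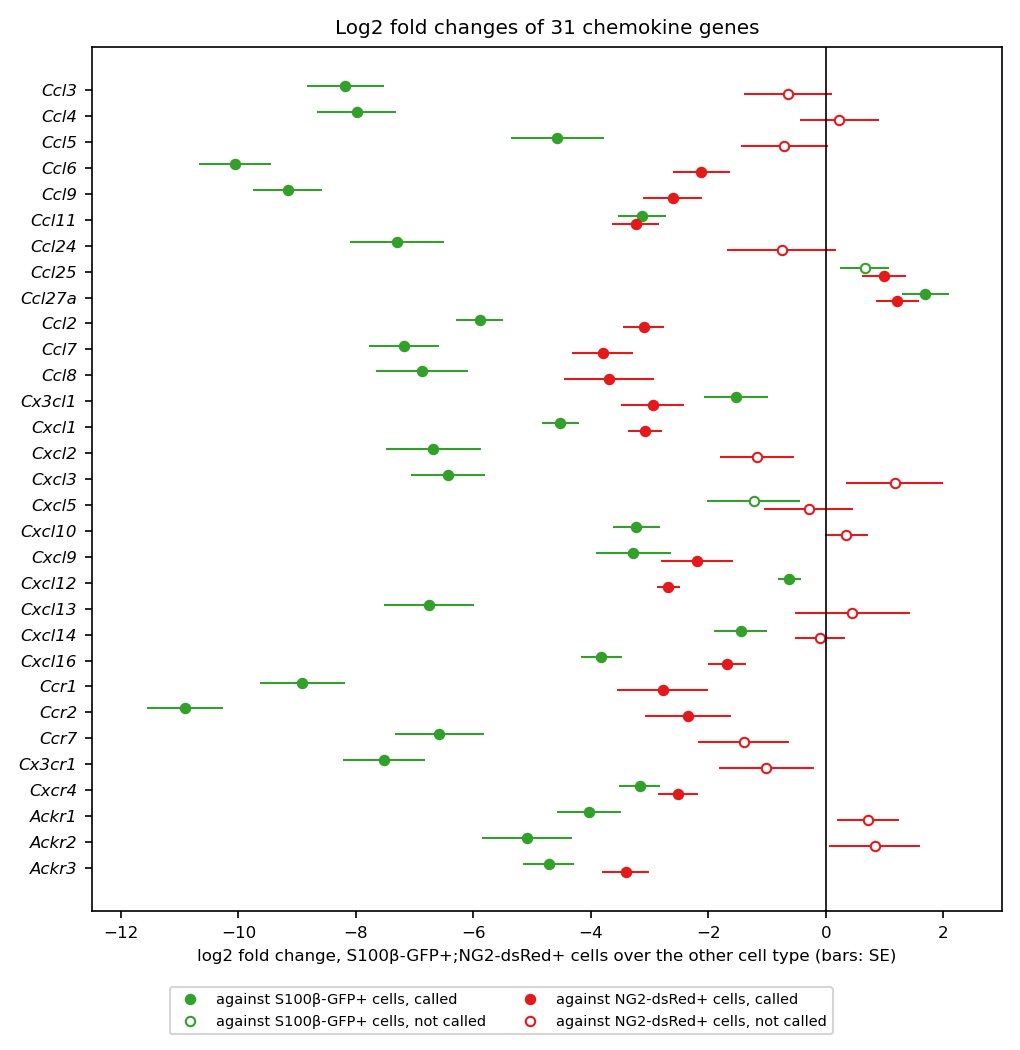
Log2 fold change of PSCs over S100β-GFP+ cells (green) and over NG2-dsRed+ cells (red) for 31 of the 32 genes, with bars of 1 SE. Filled points passed an adjusted p of 0.05 and open points did not. Against S100β-GFP+ cells 28 points lie below 0 and are filled, down to -10.91 for Ccr2, while against NG2-dsRed+ cells the lowest is -3.80 for Ccl7.

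The neutrophil chemokines Cxcl1, Cxcl2 and Cxcl3, which act through Cxcr2, lie in 1 cluster with Cxcl5 and Cxcl15 on chromosome 5 (GRCm38, chr5:90759360-90905938). The promoters of Cxcl1, Cxcl2 and Cxcl3 are shown because all of them were lower in PSCs than in S100β-GFP+ cells, that of Cxcl10 as an interferon-induced gene, and that of Cxcl12 because it was highest in NG2-dsRed+ cells. RefSeq windows of 250 bases before to 50 after a start site (GRCm38.p6) were found for 46 of the 62 symbols. They were searched on both strands for a form of the NF-kB motif, GGG and TTTCC set 2 bases apart, and for a form of the interferon response motif, GAAA and GAAA set 2 bases apart. The first was in 6 of 53 windows of the family, namely those of Ccl9, Ccl20, Ccr3, Cxcl1, Cxcl2 and Cxcl3, or 11.3%, and in 1.63% of all 32851 windows. The second was in 3 of 53, those of Ccl19, Cxcl10 and Cxcl14, or 5.66%, and in 3.44% of all windows. No window of the family held both. Of the 32 tested genes, 22 had a window. The windows of Ccl3, Ccl6, Ccr1 and Ccr2, which were also higher in S100β-GFP+ cells than in both other populations, held neither motif. Cxcl1, Cxcl2 and Cxcl3 are related neighbours, so their matches are not independent of each other. A match is a description of these letters only. The 250 bases before each start site follow, 5′ to 3′ in the direction of the gene, with the matches in capitals.
Cxcl1, chr5:90890995-90891244, plus strand: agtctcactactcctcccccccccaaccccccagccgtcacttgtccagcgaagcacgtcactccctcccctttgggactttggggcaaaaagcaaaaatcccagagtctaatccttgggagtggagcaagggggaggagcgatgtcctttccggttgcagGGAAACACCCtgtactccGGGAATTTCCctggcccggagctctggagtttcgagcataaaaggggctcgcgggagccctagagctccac
Cxcl2, chr5:90903649-90903898, plus strand: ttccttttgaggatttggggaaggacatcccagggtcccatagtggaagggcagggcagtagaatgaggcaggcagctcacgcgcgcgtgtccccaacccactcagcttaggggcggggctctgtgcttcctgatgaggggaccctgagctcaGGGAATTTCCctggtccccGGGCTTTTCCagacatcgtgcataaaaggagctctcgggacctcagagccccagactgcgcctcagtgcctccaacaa
Cxcl3, chr5:90785851-90786100, plus strand: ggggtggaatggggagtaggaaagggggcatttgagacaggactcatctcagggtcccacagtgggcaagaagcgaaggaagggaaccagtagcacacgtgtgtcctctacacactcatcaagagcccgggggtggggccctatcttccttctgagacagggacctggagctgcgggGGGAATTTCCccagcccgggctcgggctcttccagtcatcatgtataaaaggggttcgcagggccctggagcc
Cxcl10, chr5:92348890-92349139, minus strand: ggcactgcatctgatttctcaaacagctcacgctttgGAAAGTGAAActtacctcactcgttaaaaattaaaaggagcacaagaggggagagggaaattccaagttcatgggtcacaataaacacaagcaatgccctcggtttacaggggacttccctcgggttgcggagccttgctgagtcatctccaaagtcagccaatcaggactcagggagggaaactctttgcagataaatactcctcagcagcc
Cxcl12, chr6:117168285-117168534, plus strand: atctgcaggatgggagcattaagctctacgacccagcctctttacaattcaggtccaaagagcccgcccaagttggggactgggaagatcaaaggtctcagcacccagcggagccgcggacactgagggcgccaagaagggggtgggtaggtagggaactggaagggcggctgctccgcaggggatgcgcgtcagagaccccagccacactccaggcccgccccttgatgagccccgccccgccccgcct

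The letters GGGAATTTCC stood at -71 before the start site of Cxcl1, at -97 before that of Cxcl2 and at -73 before that of Cxcl3. Cxcl1 and Cxcl2 each held another match nearby, GGAAACACCC at -89 and GGGCTTTTCC at -78. The match of Cxcl10 was at -213. The window of Cxcl12 held neither motif, which says only that these letters are not in these 300 bases.

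Cxcl1, Cxcl2 and Cxcl3 were all highest in S100β-GFP+ cells, and a link of their levels to these letters was not tested. Cxcl1 had 16.1, 29.6 and 78.7 CPM (lowest, median and highest library) in PSCs, 574, 776 and 1101 CPM in S100β-GFP+ cells and 167, 253 and 516 CPM in NG2-dsRed+ cells, and no ranges overlapped. PSCs were lower by a log2 fold change of -4.52 (SE 0.31, adjusted p = 1.25e-12, edgeR quasi-likelihood test) than S100β-GFP+ cells and of -3.08 (SE 0.29, adjusted p = 5.86e-10) than NG2-dsRed+ cells, and S100β-GFP+ cells were higher than NG2-dsRed+ cells by 1.44 (SE 0.27, adjusted p = 0.000104). Cxcl2 had 1.72, 7.53 and 57.4 CPM in PSCs, 344, 974 and 4196 CPM in S100β-GFP+ cells and 3.3, 19.1 and 136 CPM in NG2-dsRed+ cells, so that PSCs and NG2-dsRed+ cells overlapped. Cxcl2 was lower in PSCs than in the S100β-GFP+ population by -6.68 (SE 0.81, adjusted p = 5.8e-08), while the difference from NG2-dsRed+ cells, -1.17 (SE 0.63, adjusted p = 0.139), did not pass. Without PSC library 36, the highest for Cxcl2, these values were -7.35 and -1.81, and the latter passed, as it did at -2.64 when the fit held a term for the part of each library on Lars2, Gm23935 and Gm15564. Cxcl3 had means of 0.18 CPM in PSCs, 17.7 CPM in S100β-GFP+ cells and 0.0682 CPM in NG2-dsRed+ cells, and the S100β-GFP+ population was above both others (log2 fold change of PSCs -6.44, SE 0.63, adjusted p = 1.15e-09, and 7.60, SE 0.68, adjusted p = 4.39e-10, over NG2-dsRed+ cells). Without PSC library 20 the first was -7.54, and without NG2-dsRed+ library 2 the second was 8.47. Cxcl5 had means of 0.818 to 1.96 CPM and passed in no comparison, and Cxcl15 had at most 9 counts in any population.

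The monocyte chemokines Ccl2 and Ccl7 bind Ccr2 among other receptors, and Ccl8 lies in the same gene cluster. Each of these genes was highest in S100β-GFP+ cells, intermediate in NG2-dsRed+ cells and lowest in PSCs. Ccl2, the main attractant of monocytes, had 2.82, 7.01 and 22.3 CPM in PSCs, 241, 465 and 823 CPM in S100β-GFP+ cells and 31.1, 54.5 and 154 CPM in NG2-dsRed+ cells, with no overlap. Its log2 fold change in PSCs was -5.89 (SE 0.40, adjusted p = 8.45e-13) against S100β-GFP+ cells and -3.10 (SE 0.35, adjusted p = 1.95e-08) against NG2-dsRed+ cells, and it was 2.78 (SE 0.33, adjusted p = 1.02e-07) in S100β-GFP+ over NG2-dsRed+ cells. Ccl7 had 0.104, 0.701 and 5.06 CPM in PSCs, 176, 220 and 325 CPM in S100β-GFP+ cells and 5.82, 14.9 and 68.4 CPM in NG2-dsRed+ cells, again with no overlap, and was lower in PSCs by -7.18 (SE 0.59, adjusted p = 3.31e-11) and -3.80 (SE 0.52, adjusted p = 5.84e-07). Ccl8 had means of 0.0741, 10.9 and 1.16 CPM in the PSC, S100β-GFP+ and NG2-dsRed+ populations and was lower in PSCs by -6.87 (SE 0.78, adjusted p = 1.9e-08) and -3.69 (SE 0.76, adjusted p = 0.000226). S100β-GFP+ cells were above NG2-dsRed+ cells by 3.38 (SE 0.47, adjusted p = 1.08e-06) for Ccl7 and by 3.19 (SE 0.59, adjusted p = 7.53e-05) for Ccl8. Ccl12 did not pass the filter, with 290 counts in S100β-GFP+ cells against 12 in PSCs and 13 in NG2-dsRed+ cells.

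Ccl11 (eotaxin, a ligand of the eosinophil receptor Ccr3) lies beside Ccl7 in the same cluster (chr11:82035571-82305690) but its S100β-GFP+ and NG2-dsRed+ libraries overlapped. It had 2.42, 11.3 and 22.2 CPM in PSCs, 69.1, 98.9 and 146 CPM in S100β-GFP+ cells and 21.1, 72.7 and 279 CPM in NG2-dsRed+ cells. PSCs were lower than both, by -3.13 (SE 0.41, adjusted p = 2.1e-07) and -3.24 (SE 0.40, adjusted p = 1.01e-07), and the difference of S100β-GFP+ from NG2-dsRed+ cells, -0.11 (SE 0.37, adjusted p = 0.857), did not pass. Ccl24, another eotaxin, had 0.139 CPM in PSCs, 23.2 CPM in S100β-GFP+ cells and 0.243 CPM in NG2-dsRed+ cells. Ccl24 was lower in PSCs than in the S100β-GFP+ population by -7.30 (SE 0.80, adjusted p = 8.24e-09) and higher in S100β-GFP+ than in NG2-dsRed+ cells by 6.55 (SE 0.73, adjusted p = 2.77e-08). The first was -8.20 without PSC library 6 and the second 7.47 without NG2-dsRed+ library 13. Ccl17 and Ccl22, ligands of Ccr4 known from dendritic cells, did not pass the filter. Ccl17 had 832 counts in S100β-GFP+ cells and 6 in each of the other populations, and Ccl22 had 1111, against 5 in PSCs and 10 in NG2-dsRed+ cells. Within S100β-GFP+ cells, Ccl17 was 0.706 to 1.65 CPM in libraries 14, 17 and 22 and 15.3 to 40.1 CPM in the other 5.

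Ccl3, Ccl4, Ccl5, Ccl6 and Ccl9, which bind Ccr1 among other receptors, form the neighbouring cluster on chromosome 11 (chr11:83525778-83664683), and each was higher in S100β-GFP+ cells than in both other populations, with no overlap. Ccl6, a chemokine of macrophages, had 0.191, 0.522 and 2.63 CPM in PSCs, 145, 843 and 2264 CPM in S100β-GFP+ cells and 1.7, 3.74 and 5.67 CPM in NG2-dsRed+ cells. It was lower in PSCs by -10.06 (SE 0.61, adjusted p = 9.53e-14) against S100β-GFP+ cells and -2.12 (SE 0.49, adjusted p = 0.000723) against NG2-dsRed+ cells. Ccl9 had 0 to 2.1 CPM in PSCs, 95.3 to 1081 CPM in S100β-GFP+ cells and 2.13 to 8.84 CPM in NG2-dsRed+ cells, and was lower in PSCs by -9.16 (SE 0.59, adjusted p = 3.23e-13) and -2.61 (SE 0.50, adjusted p = 7.41e-05). Ccl3 and Ccl4 (MIP-1α and MIP-1β) had means of 91.8 ± 58.9 and 243 ± 121 CPM (SD, n = 8) in S100β-GFP+ cells and under 1 CPM in both other populations. Compared to S100β-GFP+ cells, PSCs were lower by -8.18 (SE 0.65, adjusted p = 1.65e-11) for Ccl3, -7.99 (SE 0.68, adjusted p = 6.34e-11) for Ccl4 and -4.57 (SE 0.79, adjusted p = 1.82e-05) for Ccl5. PSCs and NG2-dsRed+ cells did not pass against each other for these 3 genes (log2 fold changes of -0.65, 0.23 and -0.71), but Ccl3 passed at -2.58 when the fit held a term for the part of each library on Lars2, Gm23935 and Gm15564. Without PSC library 36 the differences from S100β-GFP+ cells were -9.42, -8.58 and -5.55. S100β-GFP+ cells were above NG2-dsRed+ cells by 3.86 (SE 0.73, adjusted p = 0.000106) for Ccl5, which draws T cells, or 4.47 without NG2-dsRed+ library 2, and by 6.55 to 8.21 for the other 4.

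Cxcl9 and Cxcl10 are interferon-induced ligands of Cxcr3, and both were lower in PSCs than in the S100β-GFP+ population. Cxcl10 had 9.86, 27.3 and 66.4 CPM in PSCs, 153, 278 and 459 CPM in S100β-GFP+ cells and 3.94, 23.9 and 49.1 CPM in NG2-dsRed+ cells. It was lower in PSCs than in the S100β-GFP+ population by -3.23 (SE 0.40, adjusted p = 9.43e-08) and did not pass against NG2-dsRed+ cells (0.35, SE 0.36, adjusted p = 0.46), with S100β-GFP+ cells above NG2-dsRed+ cells by 3.57 (SE 0.39, adjusted p = 1.95e-08). Cxcl10 shares 133 exonic bases with Art3 on the opposite strand, which was at 205 to 789 CPM in PSCs, 17.6 to 60.8 CPM in S100β-GFP+ cells and 132 to 356 CPM in NG2-dsRed+ cells. Cxcl9 had means of 1.15, 11.4 and 5.34 CPM in the PSC, S100β-GFP+ and NG2-dsRed+ populations. PSCs were lower than both, by -3.28 (SE 0.64, adjusted p = 0.000111) and -2.19 (SE 0.61, adjusted p = 0.00426), and S100β-GFP+ and NG2-dsRed+ cells did not pass against each other (1.09, SE 0.57, adjusted p = 0.154). This last difference did pass with limma-voom (1.41) and without NG2-dsRed+ library 2 (1.61).

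Cxcl12 and Cx3cl1 were the only genes of the 32 with their highest mean in NG2-dsRed+ cells and a passed test against both other populations. Cxcl12, which guides progenitor cells and is made by stromal and perivascular cells, had 75.9, 109 and 175 CPM in PSCs, 98.4, 153 and 268 CPM in S100β-GFP+ cells and 482, 728 and 833 CPM in NG2-dsRed+ cells. Every NG2-dsRed+ library lay above every other library, with log2 fold changes of -2.68 (SE 0.20, adjusted p = 4.58e-12) in PSCs and -2.06 (SE 0.20, adjusted p = 2.39e-09) in S100β-GFP+ cells. The difference between PSCs and S100β-GFP+ cells, -0.62 (SE 0.19, adjusted p = 0.00968), was -0.20 and did not pass without libraries 14, 17 and 22, which at 177 to 268 CPM were above the other 5 at 98.4 to 163 CPM. Cx3cl1, a membrane-bound chemokine of neurons and endothelium, had 0.175 to 4.29 CPM in PSCs, 0.277 to 12.1 CPM in S100β-GFP+ cells and 5.18 to 16.3 CPM in NG2-dsRed+ cells. It was lower in PSCs than in NG2-dsRed+ cells by -2.95 (SE 0.54, adjusted p = 4.84e-05). Its differences between PSCs and S100β-GFP+ cells (-1.53, SE 0.55, adjusted p = 0.0227) and between S100β-GFP+ and NG2-dsRed+ cells (-1.41, SE 0.53, adjusted p = 0.0381) lost their calls when single libraries were left out, the first at -1.11 without S100β-GFP+ library 17, -1.37 without library 22 and -0.08 without libraries 14, 17 and 22. The first also missed with limma-voom (-0.83), with only the 2 populations compared (-1.56) and with the Lars2, Gm23935 and Gm15564 term (-0.66). Endothelial and pericyte marker sums were higher in every NG2-dsRed+ library than in every PSC library, with 10 of 10 and 9 of 10 markers lower in PSCs, and their part in the levels of Cxcl12 and Cx3cl1 was not tested.

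**Figure D3:**
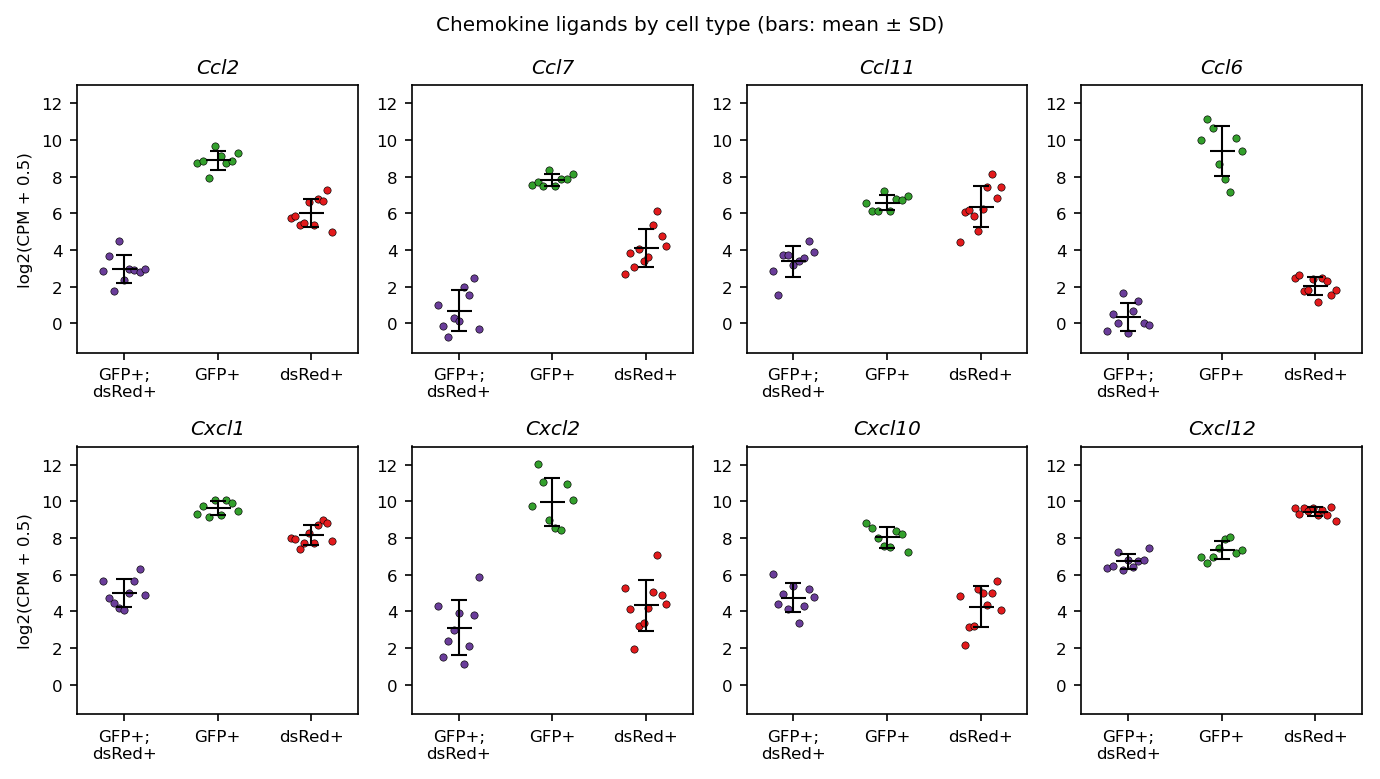
Level of 8 chemokine ligands in each library of PSCs (GFP+;dsRed+), S100β-GFP+ cells (GFP+) and NG2-dsRed+ cells (dsRed+), as log2(CPM + 0.5), with the mean and SD of each population. Ccl2, Ccl7 and Cxcl1 step up from PSCs to NG2-dsRed+ to S100β-GFP+ cells, Ccl6, Cxcl2 and Cxcl10 stand out in S100β-GFP+ cells, Ccl11 overlaps between S100β-GFP+ and NG2-dsRed+ cells, and Cxcl12 is highest in NG2-dsRed+ cells.

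Cxcl13, Cxcl14 and Cxcl16 were highest in S100β-GFP+ cells by mean. Cxcl13, which draws B cells, had 11.4 CPM in S100β-GFP+ cells, with 43.6 CPM in library 14 and 3.63 to 10.3 CPM in the others, and 7 counts in all PSC and 4 in all NG2-dsRed+ libraries. Cxcl13 was lower in PSCs than in the S100β-GFP+ population by -6.76 (SE 0.77, adjusted p = 2.01e-08), by -6.02 without S100β-GFP+ library 14 and by -7.92 without PSC library 36. Cxcl14 had means of 8.83, 23.9 and 9.43 CPM in the PSC, S100β-GFP+ and NG2-dsRed+ populations. Its higher level in S100β-GFP+ cells (log2 fold change of PSCs -1.45, SE 0.45, adjusted p = 0.00884, and 1.34, SE 0.43, adjusted p = 0.0167, over NG2-dsRed+ cells) did not pass without libraries 14, 17 and 22 (-1.02 and 0.91). Cxcl16, a ligand that also acts as a scavenger receptor, had means of 3.62, 50.2 and 11.4 CPM, and each population differed from the others. PSCs were lower by -3.82 (SE 0.35, adjusted p = 2.54e-10) and -1.68 (SE 0.32, adjusted p = 8.28e-05), and S100β-GFP+ cells were above NG2-dsRed+ cells by 2.14 (SE 0.31, adjusted p = 2.51e-06). Cxcl16 shares 552 exonic bases with Zmynd15 on the opposite strand, whose highest library was at 14.2 CPM.

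Just 2 genes were higher in PSCs in any comparison, both chemokines of epithelial and lymphoid tissues, and they are named for that after their values were seen. Ccl27a, a skin chemokine that binds Ccr10, had 2.28, 3.83 and 18.5 CPM in PSCs, 1.18, 2.05 and 3.88 CPM in S100β-GFP+ cells and 1.1, 2.88 and 5.17 CPM in NG2-dsRed+ cells. It was above 10 CPM in PSC libraries 12, 20 and 36 (12.3, 11 and 18.5 CPM), and the other PSC libraries lay within 2.28 to 4.18 CPM. Counts on Lars2, Gm23935 and Gm15564 made up 8.55%, 6.95% and 3.64% of libraries 12, 20 and 36, the lowest parts of all libraries. They made up 9.66% to 36.57% of the other PSC libraries, 19.47% to 39.08% of S100β-GFP+ and 12.49% to 40.02% of NG2-dsRed+ libraries. PSC library 4, at 9.66%, had 4.18 CPM of Ccl27a. Ccl27a was higher in PSCs by 1.69 (SE 0.40, adjusted p = 0.000933) and 1.22 (SE 0.36, adjusted p = 0.0073). Ccl25, which draws cells of the gut and thymus, had 0.175, 5.6 and 10.4 CPM in PSCs and 0.78, 2.39 and 4.27 CPM in NG2-dsRed+ cells, a log2 difference of 0.99 (SE 0.38, adjusted p = 0.0368). When the fit held as a term what part of each library fell on Lars2, Gm23935 and Gm15564, the log2 differences of Ccl27a were 0.71 and 0.35 and that of Ccl25 was 0.58, and none passed. The call of Ccl25 was also lost without PSC library 36 (0.87) and without NG2-dsRed+ library 7, 21, 26 or 30 (0.88 to 0.94). It was lost as well with no filter on low counts (1.00) and with only the 2 populations compared (1.03). Ccl25 shares 204 exonic bases with Elavl1 on the opposite strand, which was at 32.6 to 108 CPM in PSCs and 37.9 to 85.8 CPM in NG2-dsRed+ cells, and Ccl27a shares 8 with Il11ra1.

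The CC receptors Ccr1, Ccr2 and Ccr7 and the fractalkine receptor Cx3cr1 were near 0 in PSCs and NG2-dsRed+ cells and high in S100β-GFP+ cells. Ccr2, the receptor of inflammatory monocytes, had 10 counts over 5 of the 9 PSC libraries and 50 counts over the 10 NG2-dsRed+ libraries. In S100β-GFP+ cells it had 53.5, 262 and 717 CPM, a log2 fold change in PSCs of -10.91 (SE 0.65, adjusted p = 7.9e-14) and the largest of the 32 genes. PSC library 18 held 5 of the 10 counts, and the value without it was -11.66. Ccr1 had 0.141, 80.5 and 1.14 CPM in the PSC, S100β-GFP+ and NG2-dsRed+ populations, and PSCs were lower by -8.91 (SE 0.73, adjusted p = 2.68e-11) and -2.78 (SE 0.77, adjusted p = 0.00421). The differences of PSCs from NG2-dsRed+ cells in Ccr1 and Ccr2 (-2.35, SE 0.73, adjusted p = 0.00953, or -3.06 without library 18) rest on these low counts, and with limma-voom (-1.77 and -2.68) neither passed. Ccr7, which guides dendritic cells and T cells to lymph nodes, had means of 0.259, 25 and 0.661 CPM and was lower in PSCs than in the S100β-GFP+ population by -6.58 (SE 0.76, adjusted p = 2.63e-08). Cx3cr1 had 0.109, 24.1 and 0.23 CPM and was lower by -7.52 (SE 0.70, adjusted p = 4.12e-10), or -8.60 without PSC library 12. For Ccr7 and Cx3cr1 PSCs and NG2-dsRed+ cells did not pass against each other (-1.40 and -1.01). S100β-GFP+ cells were above NG2-dsRed+ cells by 5.18 to 8.57 for the 4 receptors.

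Cxcr4, the signalling receptor of Cxcl12, was the only CXC receptor to pass the filter. It had 1.25, 4.11 and 7.39 CPM in PSCs, 17.6, 40.8 and 57 CPM in S100β-GFP+ cells and 7.91, 23.5 and 43.1 CPM in NG2-dsRed+ cells, so that every PSC library was below all others. PSCs were lower by -3.17 (SE 0.35, adjusted p = 1.12e-08) and -2.52 (SE 0.34, adjusted p = 3.88e-07). The S100β-GFP+ and NG2-dsRed+ populations differed by 0.65 (SE 0.32, adjusted p = 0.116), which did not pass, but with limma-voom the difference was 0.67 and passed. Ackr3, the atypical receptor that takes up Cxcl12, had 1.05, 15.3 and 42.5 CPM in PSCs, 248, 459 and 806 CPM in S100β-GFP+ cells and 123, 199 and 238 CPM in NG2-dsRed+ cells, with no overlap. It was lower in PSCs by -4.72 (SE 0.43, adjusted p = 2.86e-10) and -3.41 (SE 0.40, adjusted p = 4.56e-08), and higher in S100β-GFP+ than in NG2-dsRed+ cells by 1.31 (SE 0.37, adjusted p = 0.00625), which was 1.05 and did not pass without libraries 14, 17 and 22. Per kilobase of exon, Ackr3 exceeded Cxcr4 in each population, with 5.17 against 2.37 CPM per kb in PSCs, 137 against 21.3 in S100β-GFP+ cells and 55 against 13.6 in NG2-dsRed+ cells. Cxcl12 was thus highest in NG2-dsRed+ cells, while the means of both its receptors were highest in S100β-GFP+ cells and lowest in PSCs.

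The other atypical receptors, Ackr1 and Ackr2, which bind many inflammatory chemokines, were higher in S100β-GFP+ cells than in either other population, and Ackr4 did not pass the filter. Ackr1 had 0.211, 1.11 and 11 CPM in PSCs, 20.6, 35.9 and 81.5 CPM in S100β-GFP+ cells and 0.283, 1.52 and 2.36 CPM in NG2-dsRed+ cells, with log2 fold changes of -4.03 (SE 0.54, adjusted p = 3.76e-07) in PSCs against S100β-GFP+ cells and 4.76 (SE 0.55, adjusted p = 4.7e-08) in S100β-GFP+ over NG2-dsRed+ cells. The first was -4.89 without PSC library 31. Ackr1 shares 361 exonic bases with Cadm3, a cell adhesion gene on the same strand, which was likewise higher in S100β-GFP+ cells (47.6 to 150 CPM, against 0.175 to 13.3 in PSCs and 1.56 to 6.15 in NG2-dsRed+ cells). Ackr2 had 21.8, 37.6 and 75.7 CPM in S100β-GFP+ cells and medians of 0.175 and 0.312 CPM in PSCs and NG2-dsRed+ cells. It was lower in PSCs than in the S100β-GFP+ population by -5.09 (SE 0.77, adjusted p = 2.44e-06) and higher in S100β-GFP+ than in NG2-dsRed+ cells by 5.92 (SE 0.79, adjusted p = 6.53e-07), or 6.70 without NG2-dsRed+ library 28. Most PSC counts of Ackr2 came from library 4, at 8.04 CPM (102 of 113 counts). Against NG2-dsRed+ cells, PSCs had a log2 fold change of 0.83 (SE 0.78, adjusted p = 0.412) in Ackr2 with this library and -1.79 without it, which passed. Against S100β-GFP+ cells the value without library 4 was -7.74.

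**Figure D4:**
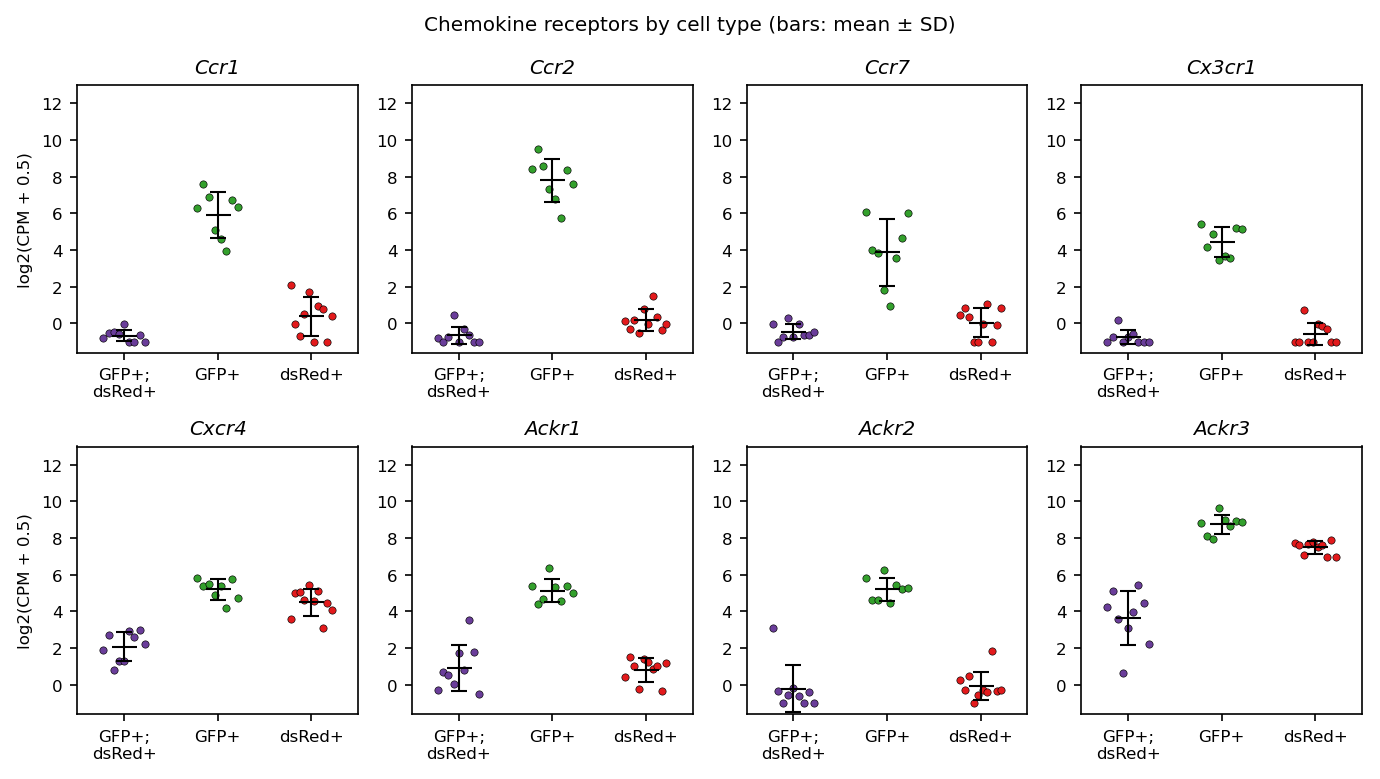
Level of 8 chemokine receptors past the count filter in each library of PSCs (GFP+;dsRed+), S100β-GFP+ cells (GFP+) and NG2-dsRed+ cells (dsRed+), as log2(CPM + 0.5), with the mean and SD of each population. For 6 receptors NG2-dsRed+ cells lie near PSCs, and for Cxcr4 and Ackr3 they lie nearer S100β-GFP+ cells. Ackr2 shows 1 PSC library apart from the rest.

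Of the 35 genes that did not pass the filter, 5 had no count in any library, and 15 had none in any PSC library. Apart from Ccl12, Ccl17, Ccl22 and Xcr1, the others (26) had means under 2 CPM in every population. Ccr6, a receptor of lymphocytes, had 90 counts over all 8 S100β-GFP+ libraries, 2 in NG2-dsRed+ cells and none in PSCs, so its level was at least 49.6-fold higher in S100β-GFP+ cells than the limit in PSCs that 3 counts over the whole group set. Cxcr3, the receptor of Cxcl9 and Cxcl10, had 71 counts in S100β-GFP+ cells, 1 in NG2-dsRed+ cells and none in PSCs (at least 34.7-fold by the same limit, and at least 21.6-fold without S100β-GFP+ library 1, which held 33 of the counts). Ccr3, the receptor of Ccl11, had 18 counts in S100β-GFP+ cells and none elsewhere (at least 10.1-fold higher than in PSCs, and at least 5.98-fold without library 22, which held 9 of the counts). Xcr1, a receptor of dendritic cells, had 386 counts in S100β-GFP+ cells, 39 in PSCs and 20 in NG2-dsRed+ cells. Cxcr2, the receptor of the neutrophil chemokines, had 33 counts in NG2-dsRed+ cells, 24 in S100β-GFP+ cells and 5 in PSCs, and Ccr10, that of Ccl27a, had 37, 14 and 53. These limits cover counting error only.

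Within S100β-GFP+ cells the family did not vary as 1 block across libraries. Of the 30 genes with a mean of 10 CPM or more in this population, 11 (among them Ccl3, Ccl6, Ccl9, Ccl17, Cxcl2, Cxcl16, Ccr1, Ccr2, Ccr7 and Cx3cr1) had lower values in libraries 14, 17 and 22 than in any of the other 5. Ccl6 was 145 to 416 CPM in these libraries and 678 to 2264 CPM in the others, Ccr2 was 53.5 to 162 against 192 to 717 CPM, and Cxcl2 was 344 to 502 against 877 to 4196 CPM. Cxcl12 and Ccl8 were above all others in the same libraries, and 17 genes overlapped, among them Ccl2 (423 to 823 against 241 to 618 CPM), Ccl7 (182 to 325 against 176 to 283 CPM), Cxcl1 (622 to 1101 against 574 to 984 CPM) and Ackr3 (410 to 806 against 248 to 492 CPM). The division of libraries follows earlier results of these data, so these are values with no test. The share of all genes that lie apart in libraries 14, 17 and 22 was not computed, so the counts describe these genes alone. The leukocyte marker sum was lower in the same libraries, and its part in these values was not tested. Without them, 31 of 36 genes of the family tested were called between PSCs and S100β-GFP+ cells, as were 42.4% of all genes tested. Of the 30 genes called with all libraries, 27 kept their call, and Ccl12, Ccl17, Ccl22 and Xcr1, which then passed the filter, were called too.

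**Figure D5:**
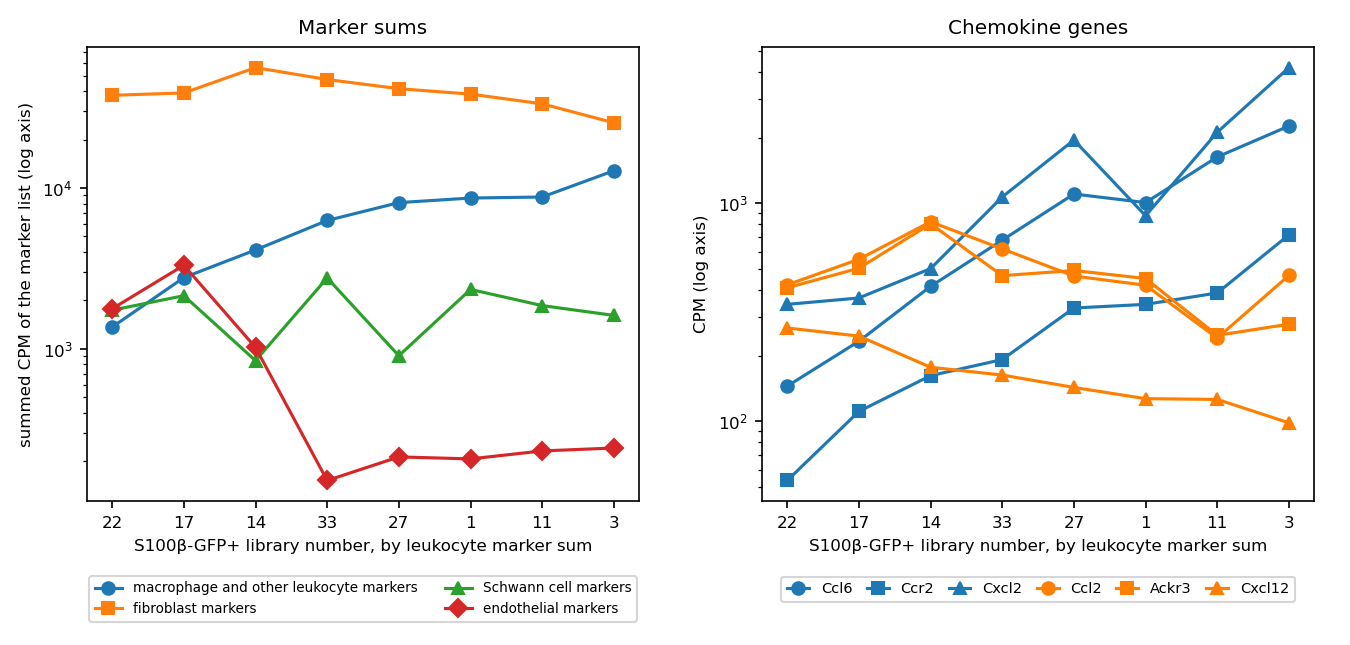
Values in the 8 S100β-GFP+ libraries, ordered by their summed leukocyte markers. Left, summed CPM of 4 marker lists, on a log axis. Right, CPM of Ccl6, Ccr2 and Cxcl2 (blue) and of Ccl2, Ackr3 and Cxcl12 (orange), on a log axis. Ccl6 and Ccr2 are lowest in library 22 and highest in library 3, as the leukocyte sum is, while Cxcl12 is highest in library 22 and lowest in library 3.

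The other genes of the pathway were taken from lists of signalling genes, NF-kB genes with inflammatory cytokines, interferon response genes and chemokine genes of other names. Of 24 tested genes of the NF-kB pathway and inflammatory cytokines, 23 were lower in PSCs than in the S100β-GFP+ population and 16 lower than in NG2-dsRed+ cells, none was higher, and the median log2 fold changes were -2.67 and -1.33. Over all genes tested, 24.1% were lower and 22.9% higher in PSCs than in the S100β-GFP+ population and 23.1% lower and 20.9% higher than in the NG2-dsRed+ one, with medians of 0.04 and 0.02. These are the background for this list and those after it. Nfkbia, the inhibitor that NF-kB itself induces, had means of 176 CPM in PSCs, 1147 CPM in S100β-GFP+ cells and 478 CPM in NG2-dsRed+ cells, and was lower in PSCs by -2.70 (SE 0.20, adjusted p = 3.41e-12) and -1.44 (SE 0.18, adjusted p = 1.89e-07). Cebpb, a transcription factor of inflammatory genes, had 54.6, 348 and 299 CPM and was lower in PSCs by -2.68 (SE 0.45, adjusted p = 1.24e-05) and -2.46 (SE 0.43, adjusted p = 2.83e-05), or -3.50 and -3.25 without PSC library 18, which was at 255 CPM where the other 8 were at 13.5 to 48.2 CPM. Of 19 interferon response genes, 12 were lower and 2 higher in PSCs than in the S100β-GFP+ population, and 12 were lower than in NG2-dsRed+ cells, with medians of -0.83 and -1.06. Irf1 had 186, 316 and 305 CPM and was lower in PSCs by -0.76 (SE 0.21, adjusted p = 0.00333) and -0.71 (SE 0.20, adjusted p = 0.00422).

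Of 22 genes of chemokine receptor signalling, 17 were lower and 3 higher in PSCs than in the S100β-GFP+ population, and 12 lower and 4 higher than in NG2-dsRed+ cells, with medians of -0.99 and -0.71. Gnai2, a Gi protein subunit through which chemokine receptors signal, had 295 CPM in PSCs, 505 CPM in S100β-GFP+ cells and 621 CPM in NG2-dsRed+ cells and was lower in PSCs by -0.78 (SE 0.16, adjusted p = 0.000167) and -1.07 (SE 0.15, adjusted p = 1.06e-06). Prex1, an activator of Rac that responds to Gi-coupled receptors, went the other way, with 332 CPM in PSCs, 57.8 CPM in S100β-GFP+ cells and 15.7 CPM in NG2-dsRed+ cells, log2 fold changes of 2.52 (SE 0.29, adjusted p = 2.85e-08) and 4.40 (SE 0.29, adjusted p = 5.3e-13). Of 8 tested chemokine genes of other names, 5 were lower and 1 higher in PSCs than in the S100β-GFP+ population, and 4 lower and 2 higher than in NG2-dsRed+ cells. Mif, a cytokine that binds Cxcr2 and Cxcr4, had 110 ± 99.6 CPM (SD, n = 9) in PSCs, with 365 CPM in library 36 and 37.3 to 112 CPM in the other 8, against 61.9 and 60.1 CPM. Its differences, 0.82 (SE 0.32, adjusted p = 0.0366) and 0.87 (SE 0.30, adjusted p = 0.0203), were 0.37 and 0.45 without library 36 and did not pass. Ccrl2, which presents chemerin and does not signal, had 6.13 CPM in PSCs, 439 CPM in S100β-GFP+ cells and 39.4 CPM in NG2-dsRed+ cells, and was lower in PSCs by -6.17 (SE 0.44, adjusted p = 1.62e-12) and -2.69 (SE 0.37, adjusted p = 6.45e-07). The 12 dissociation and immediate early genes summed to 4873 to 19910 CPM in PSCs, 9291 to 11593 CPM in S100β-GFP+ cells and 9834 to 17448 CPM in NG2-dsRed+ cells. The highest PSC value was library 18 alone, and the other 8 were at 4873 to 10005 CPM. Of the 12 genes, 8 were lower and 0 higher in PSCs than in NG2-dsRed+ cells, and 5 were lower and 3 higher than in the S100β-GFP+ population. Their part in the chemokine levels was not tested.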

How the data were processed

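RNA of cells sorted from 1 mouse per replicate was sequenced from S100β-GFP+;NG2-dsRed+, S100β-GFP+ and NG2-dsRed+ cells. After trimming, the authors used HISAT2 to align reads to GRCm38 and HTSeq to count them per Ensembl gene (versions, annotation and strand setting not given in the sources used here), and deposited 1 table of raw counts with 27 of the 36 samples, having removed failed samples. The methods name 7 S100β-GFP+ replicates, the table holds 8, and all 8 were used. Columns were matched to samples by the sample number in the titles. Identifiers were named with GENCODE M21, which held 99.72% of them. All other steps were made here. The counts were normalized by TMM and tested with edgeR 4.0.16 in R 4.3.3 (quasi-likelihood test, all libraries in 1 fit, filterByExpr with a minimum count of 10, 15330 genes kept, Benjamini-Hochberg adjustment over these, threshold 0.05). CPM are TMM-scaled counts per 1000000, and a log2 fold change is the fitted value. The members, gene lists and tests were chosen with earlier results of these data known. Ccl27 and Ccr1l1 were given a role after the table was read. Every tested member was counted, and 1 gene that is counted is not reported singly here. Values and tests are given for tested members with a mean of at least 10 CPM in 1 population and for tested receptors, and up to 4 genes of a list are named, those of highest mean CPM. Library pairs within a population were checked for duplicates (0 of 109 identical). The fits were also run on simulated counts in which few genes changed, in PSCs alone and by less than many genes here. That run therefore does not bear on the results given. The alternatives were DESeq2 1.42.0 size factors, the DESeq2 Wald test, limma-voom 3.58.1 with quality weights, no filter, the compared populations alone, S100β-GFP+ cells without libraries 14, 17 and 22, a term for the part of each library on Lars2, Gm23935 and Gm15564, and leaving out each library. A single mouse made up each replicate, and no label tells whether libraries of different populations share a mouse. The limit set for a gene at 0 was 3 counts over all libraries of a population. These were divided by the summed TMM-scaled sizes of the libraries over the genes kept. The limit is 0.038 CPM in PSCs, 0.0621 CPM in S100β-GFP+ cells and 0.045 CPM in NG2-dsRed+ cells.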

Additional observations from a re-analysis of the deposited data

Results flagged for a closer look

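Of 93 sets of values (31 genes in 3 populations), 11 held a highest or lowest library farther from the rest than Dixon's criterion allows on the log2(CPM + 0.5) scale, where chance alone flags about 1 in 20. Ackr2 stood at 8.04 CPM (102 counts) in PSC library 4, with 0 to 0.383 CPM in the others, and at 3.04 CPM (20 counts) in NG2-dsRed+ library 28, with at most 0.888 CPM in the others. Cxcl13 stood at 43.6 CPM (247 counts) in S100β-GFP+ library 14, with 3.63 to 10.3 CPM in the others. Cxcl16 stood at 11.7 CPM (67 counts) in PSC library 18, with 1.56 to 3.83 CPM in the others, and Ccr2 at 0.876 CPM (5 counts) in the same library. That library also had the highest leukocyte marker sum of the PSC libraries (575 CPM), of which Lyz2 alone was 566 CPM. Ptprc was instead highest in PSC library 36, at 4.32 CPM, with 0.259 to 1.25 CPM in the other 8. Ccl25 was lowest in library 18, at 0.175 CPM (1 count), with 2.82 to 10.4 CPM in the others. PSC library 36 was highest for Ccl3 (1.68 CPM, 16 counts) and Cxcl13 (0.526 CPM, 5 counts) and PSC library 12 for Cx3cr1 (0.626 CPM, 6 counts). In NG2-dsRed+ cells, library 13 was highest for Ccl24 (1.42 CPM, 8 counts) and library 2 for Cxcl3 (0.426 CPM, 3 counts).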

How the results depend on the processing

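The 30, 17 and 26 genes called (PSCs against S100β-GFP+ cells, PSCs against NG2-dsRed+ cells, S100β-GFP+ against NG2-dsRed+ cells) became 29 to 31, 16 to 18 and 24 to 27 when single libraries were left out. Over all genes tested, 43.9% to 51.7%, 41.5% to 48.4% and 29.7% to 38.8% were then called. With no filter on low counts, 47, 19 and 38 of 62 genes with counts were called, as were 37%, 18.1% and 23.7% of all 44705 genes. Median log2 fold changes over all of these were -0.97, 0.00 and 0.78. The calls gained between PSCs and NG2-dsRed+ cells were copies of Ccl21a and Ccl21b, whose PSC counts were all in library 4. Other settings stayed within 1.5 times the 30, 17 and 26. DESeq2 size factors and the DESeq2 Wald test changed no direction or call. Directions of the 31 genes shown turned only for differences that had not passed, and the cause was not tested. With limma-voom, PSCs against NG2-dsRed+ cells were -1.16 for Ccl4, -0.07 for Cxcl3, -0.23 for Cxcl13 and -0.12 for Ackr1, and S100β-GFP+ against NG2-dsRed+ cells were 0.21 for Ccl11. With a term for the part of each library on Lars2, Gm23935 and Gm15564, PSCs against NG2-dsRed+ cells were -0.92 for Ccl4, -0.02 for Cxcl10 and -0.27 for Cxcl13, and Ccl11 was 0.02 between S100β-GFP+ and NG2-dsRed+ cells. Leaving out 1 library gave ranges that crossed 0 against NG2-dsRed+ cells for Ackr1 (-0.13 to 0.95), Ackr2 (-1.79 to 1.65), Ccl4 (-0.33 to 0.79), Ccl24 (-1.65 to 0.16), Cxcl5 (-0.87 to 0.16), Cxcl13 (-0.69 to 1.14) and Cxcl14 (-0.46 to 0.39) in PSCs and for Ccl11 (-0.22 to 0.21) in S100β-GFP+ cells. Cx3cl1 between S100β-GFP+ and NG2-dsRed+ cells passed or missed the threshold by the library left out (-1.84 to -1.20). No paired analysis was possible because the populations share no replicate numbers in the labels. Mif turned with the Lars2, Gm23935 and Gm15564 term, to -0.09 (PSCs less S100β-GFP+ cells) and -0.05 (PSCs less NG2-dsRed+ cells), having passed both before, and against S100β-GFP+ cells it also lost its call with limma-voom (0.50), with only the 2 cell types compared (0.82), without libraries 14, 17 and 22 (0.59) and without S100β-GFP+ library 1, 14, 17 or 22 (0.72 to 0.77).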

Other observations

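PSC library 4 held all counts of the lymphatic chemokine Ccl21 in this population. The rows of Ccl21a and Ccl21b are near-identical copies among which reads cannot be assigned with confidence. Of them, 4 had counts in PSCs (163, 47, 40 and 7), and all of these were in library 4. The same library stood apart for Ackr2, which is known from lymphatic endothelium. Genes known from lymphatic endothelium, chosen after these values were seen, were therefore read in the same libraries. Lyve1 was at 65.8 CPM in PSC library 4 and at 0 to 2.72 CPM in the other 8, Mmrn1 at 63 CPM and at 0 in the others, Prox1 at 30.4 CPM against 0 to 6.84 CPM, and Flt4 at 29.8 CPM against 0.35 to 7.87 CPM. Flt4 reached similar levels elsewhere, at 11.1 to 37.3 CPM in NG2-dsRed+ cells and 0.692 to 38.8 CPM in S100β-GFP+ cells. Lyve1, Mmrn1 and Prox1 were at most 23.5, 7.33 and 7.09 CPM in S100β-GFP+ cells and 5.82, 20.1 and 9.6 CPM in NG2-dsRed+ cells. Other values of library 4 did not stand apart. The sum of the 10 endothelial markers was 412 CPM in it, where PSC libraries ranged from 200 to 826 CPM. Ackr4 was at 0.237 CPM (3 counts) in it, where PSC libraries ranged from 0 to 0.907 CPM. S100b, whose promoter drives GFP, was at 336 CPM in library 4, within the 57 to 566 CPM of the other PSC libraries. The part of lymphatic endothelial cells in the levels of Ccl21 and Ackr2 was not tested.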
